A study of Arabidopsis thaliana and Solanum lycopersicum with 40 samples.

Results

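The genes described here are those of tomato (Solanum lycopersicum) sugar transport, sucrose cleavage and trehalose metabolism, followed in roots after the plants were moved to shade. They were chosen by description: a gene was taken when the text beside its identifier held trehalose, SWEET, sugar transporter, hexose transporter, sucrose transporter, sucrose synthase or invertase. This gave 142 of the 34075 genes of the tomato table. The word counts were 75 for sugar transporter, 40 for invertase, 30 for SWEET, 19 for trehalose and 8 for sucrose synthase, with some genes holding more than 1 of them, and no description held hexose transporter or sucrose transporter. Seedlings of the cultivar M82 had grown for 7 days in white light, after which they stayed unshaded or were shaded, and roots were frozen at 3, 6, 12 and 24 h. Each of the 8 groups of light and time held 2 samples, so 16 RNA sequencing libraries were used. No label says whether the 2 samples of a group came from separate plants, so p-values measure the spread between these samples, which may be technical. The labels give no genotype change and no agent other than light, and they do not describe the spectrum of the shade.

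Leaves export sucrose, which reaches roots through the phloem and is cleaved there by sucrose synthases or invertases. SWEET proteins let sugars cross membranes down their gradient, while hexose carriers of the sugar transporter protein group take up sugars together with protons. Trehalose 6-phosphate is made by enzymes with trehalose-phosphate synthase activity and removed by trehalose-phosphate phosphatases. It is a sugar signal whose level follows that of sucrose. It inhibits the kinase SnRK1, a regulator that is active when sugar is scarce. The synthases below were grouped by description alone, and whether each of them makes this signal was not tested.

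By description, the genes were divided into 12 trehalose-phosphate synthases, 7 trehalose-phosphate phosphatases, 8 sucrose synthases, 12 invertases, 26 invertase inhibitors, 30 SWEET genes, 21 hexose and other sugar transporters, 24 nucleotide-sugar transporters and 2 genes of other kinds. The class of invertase inhibitors includes a superfamily whose description names inhibitors of invertase or of pectin methylesterase without saying which. Levels are FPKM, fragment numbers per transcript length and per mapped fragment, and differences are shaded minus unshaded on the log2(FPKM + 1) scale, on which low genes appear to change less than they do. A gene was tested when its mean over the 16 libraries was at least 1 FPKM, which 88 of the 142 genes reached, and called at an adjusted p under 0.05 (limma, Benjamini-Hochberg over 20413 genes).

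FPKM sums ranged from 907138 to 1021245 per library, and depth relative to the geometric mean of the libraries ranged from 0.669 to 1.48. In 3 pairs of replicates more genes differed by over 1 on the log2 scale than in the others: 1181 of 20413 in the unshaded pair of 6 h, 986 in the unshaded pair of 12 h and 1041 in the shaded pair of 24 h, against 361 to 461 in the other 5. Pearson's r across genes was 0.957, 0.963 and 0.965 in these 3 pairs. In both unshaded pairs the gaps went either way in like numbers (562 and 619 genes, 481 and 505), whereas the first shaded library of 24 h was the lower one in 813 genes and the higher one in 228. Of the 88 genes tested here, 7 were lower in it by that much and 1 was higher. Summed FPKM of 6 genes described as sieve element occlusion proteins, which are made in phloem sieve elements, was 22.7 and 73.4 in the 24 h shaded libraries against 159 and 160.4 unshaded, and 109 to 166 in the 12 libraries of earlier times. A second list of phloem markers, 17 genes described as phloem proteins, summed to 56.4 and 122 FPKM in the 24 h shaded libraries and 137 and 129.8 unshaded. All 4 sieve element occlusion genes that were tested fell at 24 h, with a median difference of -1.91. Of 11 phloem protein genes tested, 1 fell and none rose at 24 h, with a median difference of -0.60. The part of these phloem marker levels in the 24 h results below was not tested. In bulk roots, fewer cells of a type and less RNA per cell cannot be told apart. The root label was checked with 7 genes of Casparian strip membrane proteins, which mark the endodermis. Their sum was 213 and 199.9 FPKM unshaded against 340.3 and 287 shaded at 3 h and 231 and 158 against 358 and 364 at 6 h, without overlap, while at 12 h and 24 h, where it lay between 178 and 362 FPKM, the groups overlapped. None of 6 tested rose at 3, 6 or 12 h, 1 rose at 24 h and 4 rose in the average. Leaf material was checked with the Rubisco small subunit genes, of which 2 of 3 were at 0 in every library and whose sum was at most 0.893 FPKM. Other leaf markers were present: 35 chlorophyll-binding genes summed to 1095 to 2317 FPKM in the libraries of 3 h and 6 h, and 140 genes described with photosystem I or II, 88 of them at 0 in every library, to 2630 to 5093 FPKM in all libraries. The chlorophyll-binding sum was 874 and 660 FPKM shaded against 2123 and 1172 unshaded at 12 h, and 575 and 670.5 against 960.5 and 1174 at 24 h. Of 33 tested, 16 fell at 12 h and 13 at 24 h, and of 34 photosystem genes tested 9 fell at 12 h and 5 fell and 1 rose at 24 h. The part of the endodermis and leaf markers in the results below was not tested.

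Nearly all calls among these genes were made at 12 h and 24 h. At 3 h no gene was called, where 0.186% of all tested genes were, and 9 of the 88 genes (10.2%) had an unadjusted p under 0.05 in limma, against 9.78% of all genes. The same share was 26.1% of the 88 genes against 14.6% of all genes at 6 h, 42% against 37.4% at 12 h and 58% against 47% at 24 h. At 6 h 2 genes rose and none fell, against 1.64% of all genes called and 1.14% called higher. At 12 h 10 genes rose and 13 fell, 23 of 88 in all, beside 23.9% of all genes called, 10.6% higher and 13.3% lower. At 24 h 11 genes rose and 28 fell, 39 of 88, beside 37.3% of all genes called, 15.9% higher and 21.4% lower. Averaged over the 4 times, 18 rose and 27 fell, 45 of 88, beside 39.2% of all genes called, 18.2% higher and 20.9% lower. The share called was thus near the background at 3 h and 12 h. With all libraries, the genes that fell at 24 h made up 31.8% of those tested. The median difference of the 88 genes was 0.04, -0.02, -0.05 and -0.18 at 3, 6, 12 and 24 h, against 0.03, 0.00, -0.02 and -0.03 over all genes. At 12 h the split of rises and falls depended on scaling, with 13 higher and 11 lower after median-of-ratios scaling.

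Calls at both 12 h and 24 h were made for 15 genes, 14 of them in the same direction and 1, an ERD6-type sugar transporter, in the opposite one. A further 8 genes were called at 12 h and not at 24 h, and 24 at 24 h and not at 12 h. In 47 of the 88 genes the difference had the same sign at all 4 times. Changes of 1 or more on the log2 scale were found in 12 called genes at 12 h and 17 at 24 h. For the counts so far in this paragraph no share over all genes was computed, so they are not set against the background. Without the first shaded library at 24 h, most of the 39 genes lost their 24 h call, and all 39 kept their direction. The share of the 88 genes called at 24 h was then below that of all genes. The median difference of the 88 genes was -0.13 in that fit, against -0.01 over all genes. Without the first or the second unshaded library of 24 h, 16 and 18 of the 39 kept their call. Without the first or the second library of 12 h, 11 and 14 of the 23 genes kept their 12 h call where the library was unshaded and 8 and 7 where it was shaded, and all 23 kept their direction. Both 6 h calls were lost without the first unshaded or either shaded library of 6 h. Of all calls, 5 at 12 h, 10 at 24 h and 33 of 45 in the average stood without any 1 of the 16 libraries. Those at 12 h were the synthase Solyc07g006500.3, the sucrose synthase Solyc07g042520.4, the inhibitors Solyc12g099200.2 and Solyc07g042390.3 and the transporter Solyc01g080680.3, so every other 12 h call named below was lost without at least 1 library. Fits that leave out a library have 1 sample in its group, which is assumed to vary like the other groups.

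**Figure D1:**
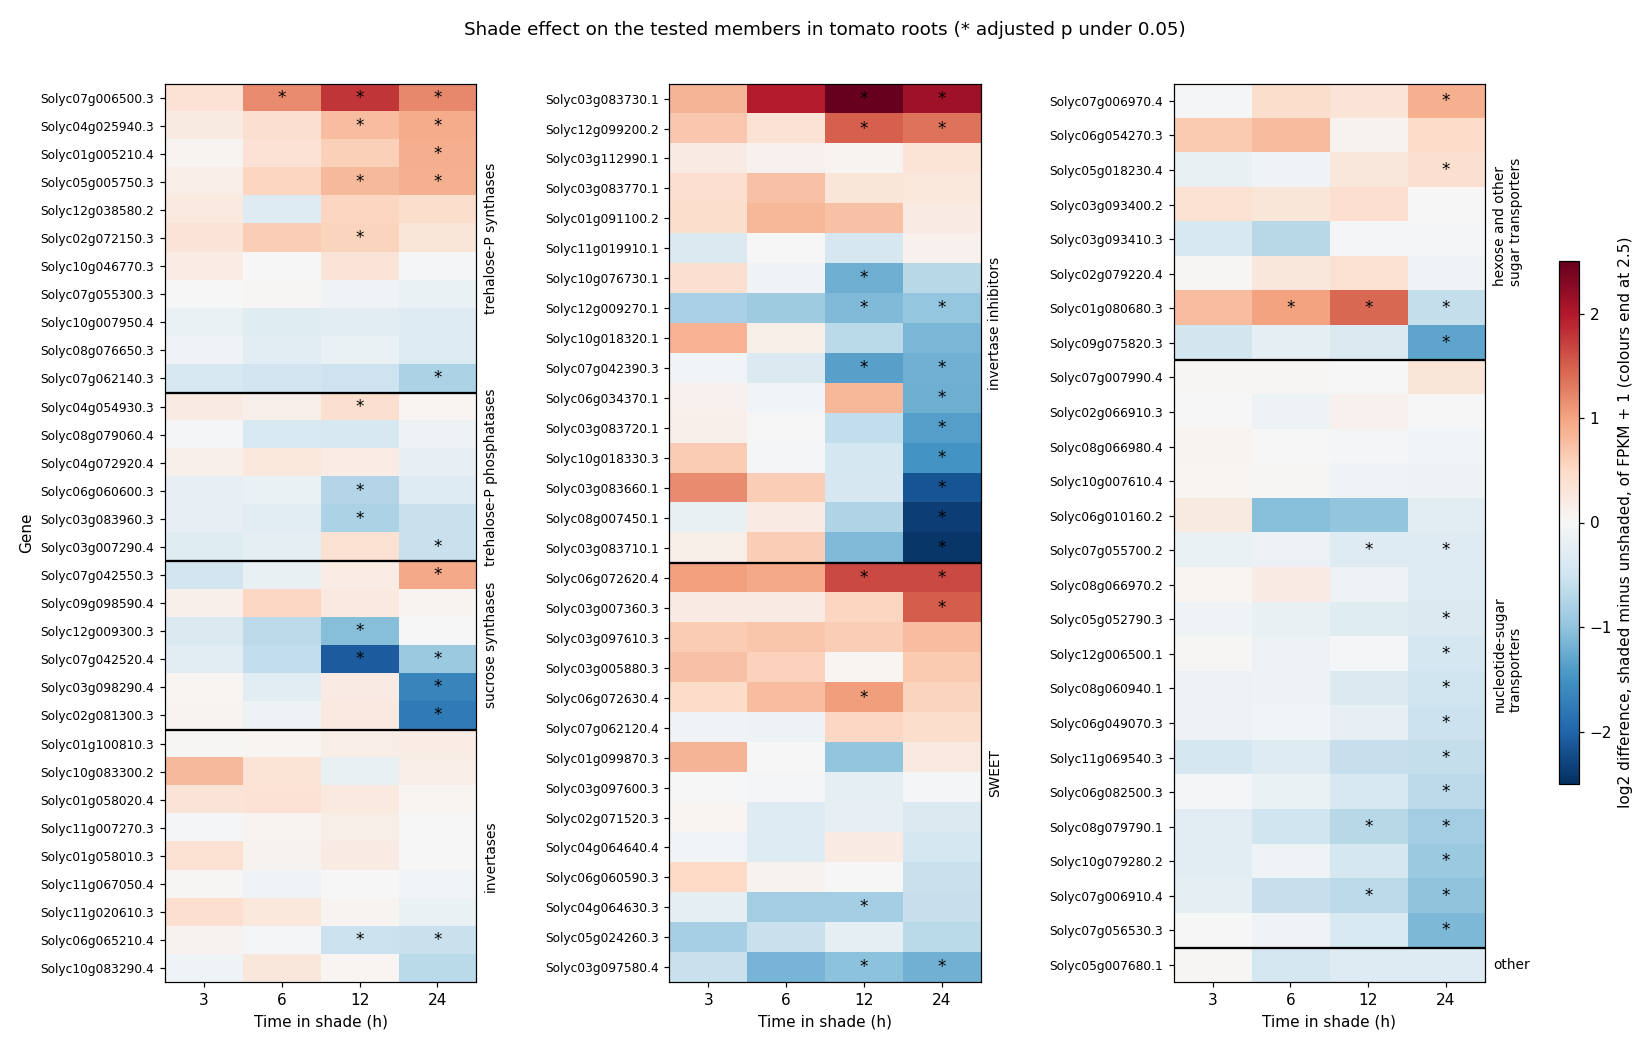
Difference between shaded and unshaded roots for the 88 genes tested, one row per gene and one column per time (3, 6, 12 and 24 h), grouped by class and ordered by the 24 h difference. Colour is the log2 difference of FPKM + 1, red for higher in shade and blue for lower, and asterisks mark an adjusted p under 0.05; calls number 0, 2, 23 and 39 from left to right, and every call among the nucleotide-sugar transporters is blue.

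Several genes described as trehalose-phosphate synthases rose in shade. Of 11 tested, 4 rose and none fell at 12 h, 4 rose and 1 fell at 24 h, and in the average 5 rose and 3 fell. The shares called higher were 36.4% at 12 h and 24 h and 45.5% in the average, beside 10.6%, 15.9% and 18.2% of all genes. Lower in the average were 27.3%, beside 20.9% of all genes. The gene described as trehalose-6-phosphate synthase 1, Solyc07g006500.3, was 1 of the 2 genes called at 6 h. In the 3 h libraries it was at 27.1 and 39.6 FPKM unshaded and 33.5 and 53.1 shaded, so the groups overlapped. At 6 h it was at 37.8 and 32.9 FPKM unshaded and 91.8 and 72.4 shaded, and at 12 h at 32.0 and 30.2 unshaded and 105 and 114 shaded. At 24 h it was at 31.4 and 30.4 FPKM unshaded and 75.9 and 69.2 shaded. From 6 h on, both shaded libraries were above both unshaded ones, while the unshaded level stayed within 27.1 to 39.6 FPKM over the day. The log2 difference was 1.19 ± 0.22 (SE; adjusted p = 0.0251) at 6 h, 1.79 ± 0.22 (SE; adjusted p = 0.000647) at 12 h and 1.20 ± 0.22 (SE; adjusted p = 0.00247) at 24 h. The 12 h and 24 h calls stood without any 1 of the 16 libraries, and the 6 h call was lost in 4 of those 16 fits.

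The synthase with the highest level, Solyc05g005750.3, had a mean of 153 FPKM over all libraries. It was at 114 and 98.8 FPKM unshaded and 196 and 177 shaded at 12 h, and at 93.5 and 105 unshaded and 191 and 177 shaded at 24 h. The groups did not overlap at either time, although at 3 h the shaded libraries, at 119.8 and 188, lay on both sides of the unshaded ones at 129 and 137. Its difference was 0.81 ± 0.21 (SE; adjusted p = 0.0211) at 12 h and 0.88 ± 0.21 (SE; adjusted p = 0.00920) at 24 h. Solyc04g025940.3 went from 24.5 and 25.1 FPKM unshaded to 51.3 and 45.2 shaded at 24 h, with a difference of 0.93 ± 0.17 (SE; adjusted p = 0.00245), and this call stood without any 1 library. Solyc01g005210.4 was at 39.8 and 44.5 FPKM unshaded and 82.2 and 77.6 shaded at 24 h, a difference of 0.91 ± 0.21 (SE; adjusted p = 0.00761). Solyc02g072150.3 rose less, by 0.45 ± 0.09 (SE; adjusted p = 0.00350) in the average, which stood without any 1 library. Its 12 h difference of 0.56 ± 0.18 (SE; adjusted p = 0.0494) lost its call in 13 of the 16 fits without a library, with adjusted p up to 0.280, and in 4 of 7 other settings. All 5 of these genes had shaded libraries above unshaded ones without overlap at 12 h. They were picked as called in these same data, and no share over all genes was computed, so this adds no support.

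A synthase fell in the same roots. Solyc07g062140.3, described as trehalose-phosphate synthase 1, was at 10.4 and 10.7 FPKM unshaded and 4.25 and 7.37 shaded at 24 h, and its mean over all libraries was 8.25 FPKM. It was lower in both shaded libraries at every time, with a difference of -0.80 ± 0.22 (SE; adjusted p = 0.0163) at 24 h and -0.55 ± 0.11 (SE; adjusted p = 0.00307) in the average. The summed level of the class was 334 and 321 FPKM unshaded and 556 and 529 shaded at 12 h, and 323 and 345 unshaded and 524 and 511 shaded at 24 h. Without the first shaded library at 24 h, the rises of Solyc07g006500.3 and Solyc04g025940.3 were the only 24 h calls of the class. Its share called at 24 h was then near that of all genes. The median difference of the class was 0.38 at 24 h, against -0.01 over all genes, and 0.21 in the average.

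**Figure D2:**
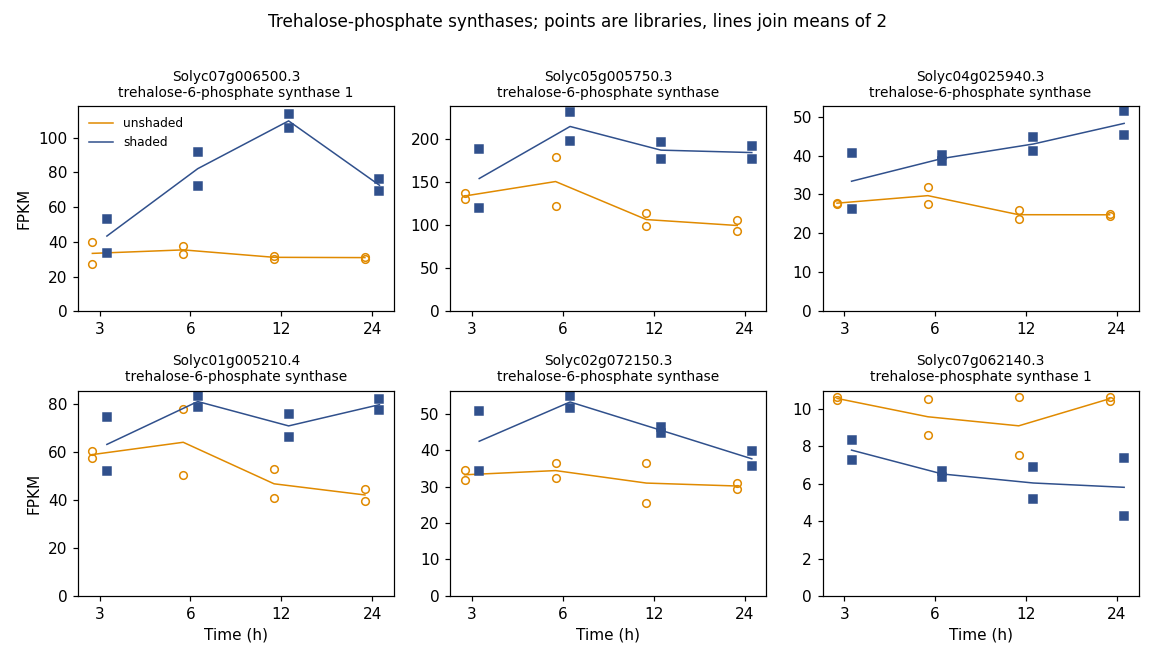
FPKM of 6 trehalose-phosphate synthases in each library (vertical axes start at 0) at 3, 6, 12 and 24 h (horizontal axes), with open circles for unshaded and filled squares for shaded roots and lines through the means of 2. The 5 genes picked as called higher in the average separate from the unshaded libraries by 12 h, and Solyc07g062140.3 lies lower in shade.

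Trehalose-phosphate phosphatases, which remove the phosphate from trehalose 6-phosphate, moved in both directions. Of 6 tested, 1 rose and 2 fell at 12 h, and 1 fell at 24 h, beside 23.9% and 37.3% of all genes called. Solyc03g083960.3 was at 11.7 and 16.8 FPKM unshaded and 7.49 and 7.83 shaded at 12 h, a difference of -0.80 ± 0.20 (SE; adjusted p = 0.0182). Solyc06g060600.3 was at 16.6 and 11.6 FPKM unshaded and 7.14 and 8.83 shaded, a difference of -0.73 ± 0.19 (SE; adjusted p = 0.0193). In both, the shaded libraries lay below the unshaded ones. Solyc04g054930.3 rose by 0.40 ± 0.13 (SE; adjusted p = 0.0494) at 12 h, a call that 12 of the 16 fits without a library lost. Solyc03g007290.4 fell at 24 h with a difference of -0.56 ± 0.18 (SE; adjusted p = 0.0286), where its levels were 13.2 and 11.7 FPKM unshaded and 6.80 and 9.64 shaded. The phosphatase with the highest level, Solyc04g072920.4, with a mean of 52.4 FPKM, was called in no comparison and had differences of 0.18 at 12 h and -0.20 at 24 h. Solyc08g079060.4 was called in no comparison either. Without the first shaded library at 24 h, none of the 6 was called at 24 h.

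Sucrose synthases, which split sucrose into fructose and UDP-glucose, moved in both directions in shade, with more falls than rises. Of 6 tested, none rose and 2 fell at 12 h, 1 rose and 3 fell at 24 h, and none rose and 2 fell in the average. Among all genes 10.6% were higher and 13.3% lower at 12 h, 15.9% and 21.4% at 24 h, and 18.2% and 20.9% in the average. The 24 h falls lost their calls without the first shaded library of that time, where the class median was -0.28, against -0.47 with all libraries. Solyc07g042550.3 had the highest mean level of all 142 genes, 366 FPKM. Its libraries were at 357 and 371 FPKM unshaded and 228 and 296 shaded at 3 h, and at 369 and 304 unshaded and 403 and 365 shaded at 12 h. At 24 h they were at 318 and 279 FPKM unshaded and 529 and 626 shaded. The shaded libraries were thus below the unshaded ones at 3 h, overlapped them at 12 h, and were well above them at 24 h. The difference was -0.48 ± 0.16 (SE; adjusted p = 0.323) at 3 h and 0.95 ± 0.16 (SE; adjusted p = 0.00207) at 24 h, and the 24 h call stood without any 1 library.

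Solyc07g042520.4, whose identifier lies close to that of the first gene, moved the other way. It was at 153 and 141 FPKM unshaded and 85.9 and 106 shaded at 6 h, and at 215 and 108 unshaded and 46.1 and 26.8 shaded at 12 h. At 24 h it was at 192 and 207 FPKM unshaded and 110.2 and 99.3 shaded. The groups did not overlap at these 3 times, and the shaded level was lowest at 12 h. The difference was -2.08 ± 0.31 (SE; adjusted p = 0.00172) at 12 h, the largest fall of the 88 genes at that time and one that stood without any 1 library, and -0.92 ± 0.31 (SE; adjusted p = 0.0395) at 24 h, a call that 8 of the 16 fits lost. Solyc07g042550.3 made up 56.9% and 62.4% of the summed FPKM of all 8 sucrose synthases in the unshaded libraries at 12 h and 79.0% and 82.9% in the shaded ones. At 24 h its share was 54.4% and 49.5% unshaded and 77.9% and 78.7% shaded. The summed level was 649 and 487 FPKM unshaded and 509 and 441 shaded at 12 h, and 585 and 563 unshaded and 678 and 795 shaded at 24 h. How reads shared by such similar genes were divided is not given in the sources used here, so the split between close copies is uncertain.

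The other sucrose synthases were at lower levels. The gene described as fruit sucrose synthase, Solyc12g009300.3, was at 33.5 and 46.8 FPKM unshaded and 24.9 and 13.7 shaded at 12 h, a difference of -1.06 ± 0.27 (SE; adjusted p = 0.0196). At 24 h its groups overlapped, at 39.0 and 36.9 FPKM unshaded and 31.4 and 44.8 shaded. Solyc02g081300.3 and Solyc03g098290.4 differed from these in being close to the unshaded level at 3 h and 6 h and slightly above it at 12 h. At 24 h Solyc02g081300.3 was at 17.7 and 23.1 FPKM unshaded and 1.98 and 12.1 shaded, a difference of -1.76 ± 0.50 (SE; adjusted p = 0.0186). Solyc03g098290.4 was at 12.3 and 13.6 FPKM unshaded and 1.14 and 8.26 shaded, a difference of -1.65 ± 0.48 (SE; adjusted p = 0.0207). In both genes the first shaded library was far below the second, as it was for the sieve element occlusion genes (22.7 and 73.4 FPKM), and whether the phloem marker level has a part in these falls was not tested. Without that library their differences were -0.70 and -0.59, with adjusted p of 0.0794 and 0.0531. Solyc09g098590.4, at a mean of 2.86 FPKM, was not called.

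**Figure D3:**
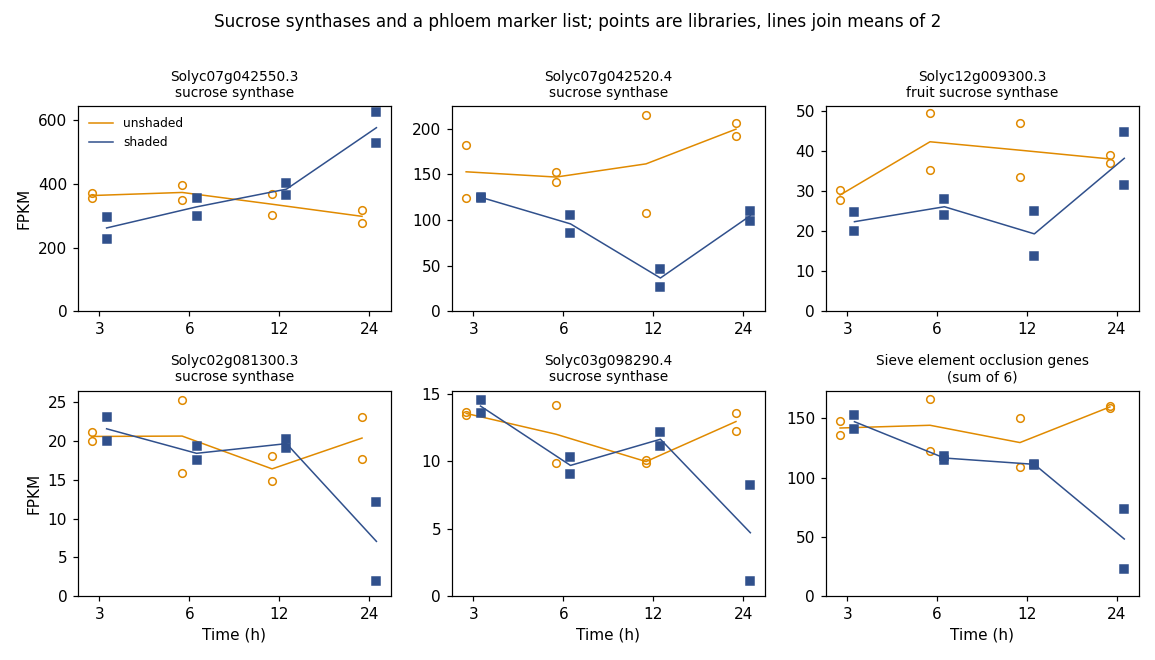
FPKM of 5 sucrose synthases and the summed FPKM of 6 sieve element occlusion genes in each library (vertical axes start at 0) at 3, 6, 12 and 24 h (horizontal axes), with open circles for unshaded and filled squares for shaded roots and lines through the means of 2. Solyc07g042550.3 is higher in shade at 24 h, Solyc07g042520.4 is lowest in shade at 12 h, and Solyc02g081300.3 and Solyc03g098290.4 fall at 24 h together with the marker sum, which is 22.7 and 73.4 FPKM shaded and 159 and 160.4 unshaded.

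Invertases, which split sucrose into glucose and fructose, were mostly not called. Of 9 tested, 1 fell at 12 h and at 24 h and none rose, beside 13.3% and 21.4% of all genes called lower. That gene was the neutral or alkaline invertase Solyc06g065210.4, which had the highest level of the class with a mean of 55.5 FPKM. It was at 60.0 and 73.1 FPKM unshaded and 47.0 and 43.6 shaded at 12 h, and at 53.4 and 57.9 unshaded and 31.8 and 43.7 shaded at 24 h. The groups did not overlap at these times and did at 3 h and 6 h. Its difference was -0.54 ± 0.17 (SE; adjusted p = 0.0425) at 12 h and -0.57 ± 0.17 (SE; adjusted p = 0.0246) at 24 h, but the 12 h call was lost in 11 of the 16 fits without a library and the 24 h call in 3. The summed level of the class was 176 and 198 FPKM unshaded and 175 and 174 shaded at 12 h, and 167 and 172 unshaded and 138 and 152 shaded at 24 h.

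Invertase inhibitors, small proteins that bind invertases and block them, moved in both directions, with falls at 24 h outnumbering rises. Of 16 tested, 2 rose and 3 fell at 12 h, and 2 rose and 8 fell at 24 h. Shares over all genes were 10.6% higher and 13.3% lower at 12 h, and 15.9% and 21.4% at 24 h. The gene described plainly as an invertase inhibitor, Solyc12g099200.2, had a mean of 61.6 FPKM. It was at 38.3 and 29.4 FPKM unshaded and 87.7 and 107 shaded at 12 h, and at 45.3 and 44.6 unshaded and 119 and 115 shaded at 24 h. Shaded libraries were above unshaded ones without overlap at 3, 12 and 24 h. The difference was 1.498 ± 0.21 (SE; adjusted p = 0.00129) at 12 h and 1.36 ± 0.21 (SE; adjusted p = 0.00156) at 24 h, and both calls stood without any 1 library.

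The other tested genes of the class carry descriptions that cover inhibitors of either enzyme. Solyc03g083730.1 showed the largest rise of the 88 genes at 12 h and at 24 h. It was at 7.59 and 6.76 FPKM unshaded and 29.8 and 32.0 shaded at 6 h, and at 6.40 and 42.9 unshaded and 133 and 163 shaded at 12 h. At 24 h it was at 3.08 and 15.5 FPKM unshaded and 34.2 and 34.7 shaded. Shaded libraries were higher at every time without overlap, and the 2 unshaded libraries of 12 h and of 24 h were themselves far apart. The difference was 3.04 ± 0.73 (SE; adjusted p = 0.0139) at 12 h and 2.11 ± 0.73 (SE; adjusted p = 0.0420) at 24 h; the latter call was lost in 13 of the 16 fits without a library, while the average, 1.99 ± 0.36 (SE; adjusted p = 0.00192), was called in all 16.

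Genes with neighbouring identifiers went the other way at 24 h. Solyc03g083710.1 was at 19.3 and 14.2 FPKM unshaded and 6.94 and 7.46 shaded at 12 h, and at 9.12 and 15.2 unshaded and 0.411 and 2.97 shaded at 24 h. Its 24 h difference of -2.44 ± 0.46 (SE; adjusted p = 0.00321) was the largest fall of the 88 genes at that time and stood without any 1 library. Among genes chosen after their values were seen, Solyc03g083720.1 was at 10.6 and 22.4 FPKM unshaded and 3.70 and 7.51 shaded at 24 h, a difference of -1.38 ± 0.32 (SE; adjusted p = 0.00709), and Solyc03g083660.1 at 9.63 and 4.33 unshaded and 0.104 and 1.61 shaded, a difference of -2.15 ± 0.60 (SE; adjusted p = 0.0172). In all 3 the first shaded library was the lower one. Without it only Solyc03g083710.1 was called, with a difference of -1.69. Solyc03g083770.1, a further identifier of this series, was higher in the average by 0.43 ± 0.13 (SE; adjusted p = 0.0254), a call that 7 of the 16 fits lost.

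Falls at both late times were seen in 2 more genes of the superfamily. Solyc07g042390.3 was at 6.23 and 4.26 FPKM unshaded and 0.956 and 1.99 shaded at 12 h, and at 4.81 and 4.90 unshaded and 1.54 and 1.58 shaded at 24 h. The difference was -1.35 ± 0.24 (SE; adjusted p = 0.00387) and -1.19 ± 0.24 (SE; adjusted p = 0.00432), and both calls stood without any 1 library. Solyc12g009270.1 was lower in both shaded libraries at every time, at 22.7 and 20.5 FPKM unshaded and 12.8 and 11.04 shaded at 3 h and 20.9 and 19.1 and 10.2 and 9.39 at 24 h. Its average difference was -0.94 ± 0.14 (SE; adjusted p = 0.000626). Solyc01g091100.2 rose in the average by 0.55 ± 0.14 (SE; adjusted p = 0.0118), and Solyc11g019910.1, which had the highest level of the class at a mean of 62.5 FPKM, was called in no comparison. Without the first shaded library at 24 h, the share of the class called at that time was near that of all genes. The median difference of the class was then -0.83, against -1.05 with all libraries.

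**Figure D4:**
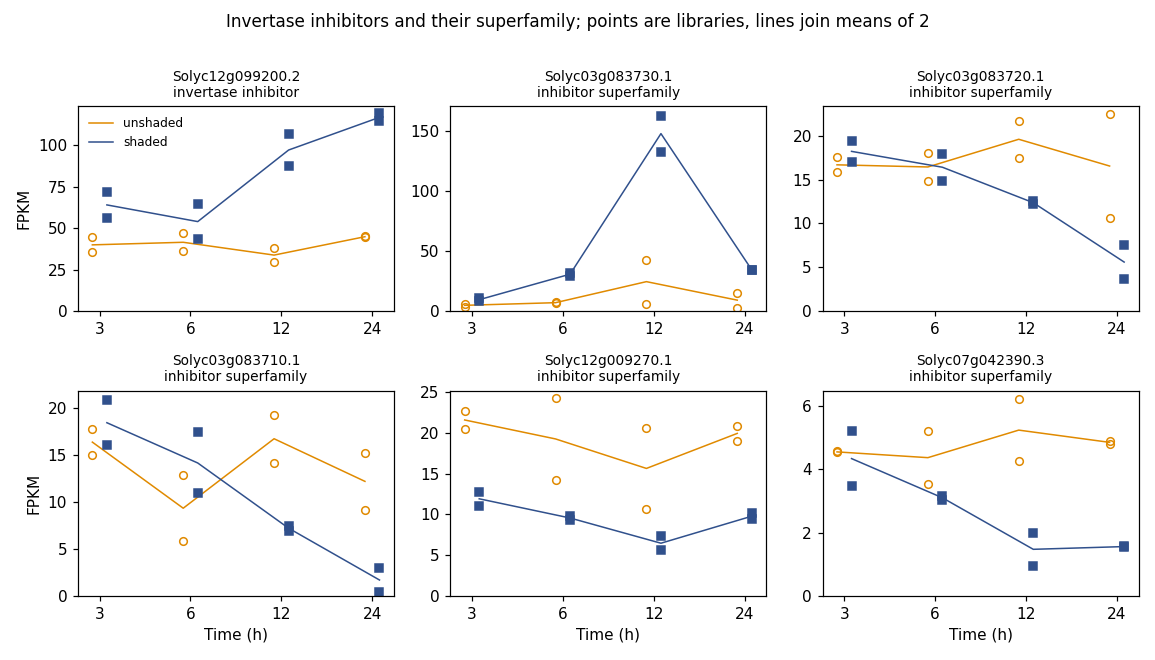
FPKM of 6 genes of the invertase inhibitor class in each library (vertical axes start at 0) at 3, 6, 12 and 24 h (horizontal axes), with open circles for unshaded and filled squares for shaded roots and lines through the means of 2. Solyc12g099200.2 and Solyc03g083730.1 are higher in shade at 12 and 24 h, whereas Solyc03g083720.1 and Solyc03g083710.1 are lower at 24 h and Solyc12g009270.1 and Solyc07g042390.3 at both.

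SWEET genes rose and fell in like numbers. Of 14 tested, 2 rose and 2 fell at 12 h, 2 rose and 1 fell at 24 h, and 4 rose and 3 fell in the average. Called in turn were 28.6%, 21.4% and 50%, beside 23.9%, 37.3% and 39.2% of all genes. None of the 14 was called at 24 h without the first shaded library of that time, and 3 rose and 3 fell in the average. Solyc06g072620.4 was at 2.15 and 3.04 FPKM unshaded and 7.52 and 13.6 shaded at 12 h, and at 0.725 and 1.36 unshaded and 5.16 and 5.45 shaded at 24 h. Its shaded libraries were above the unshaded ones at 3, 12 and 24 h, and at 6 h 1 of them was at the unshaded level (1.87 and 2.59 unshaded, 2.16 and 11.2 shaded). The difference was 1.65 ± 0.49 (SE; adjusted p = 0.0338) at 12 h and 1.64 ± 0.49 (SE; adjusted p = 0.0233) at 24 h, the latter with an adjusted p of 0.0937 without that library. The next identifier, Solyc06g072630.4, was at 1.90 and 2.06 FPKM unshaded and 5.24 and 4.98 shaded at 12 h, a difference of 1.04 ± 0.25 (SE; adjusted p = 0.0148), without overlap at any of the 4 times.

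Among SWEET genes at higher levels, Solyc03g007360.3 rose at the last time. It was at 22.2 and 12.9 FPKM unshaded and 22.5 and 28.2 shaded at 12 h and at 11.4 and 21.9 unshaded and 59.3 and 37.4 shaded at 24 h. The groups were barely apart at 12 h and well apart at 24 h, with a difference of 1.52 ± 0.37 (SE; adjusted p = 0.0101), or 1.19 (adjusted p = 0.0930) without the first shaded library. Solyc04g064630.3 moved the other way, from 25.9 and 30.1 FPKM unshaded to 16.4 and 13.8 shaded at 12 h, a difference of -0.85 ± 0.23 (SE; adjusted p = 0.0254). Solyc03g097580.4, at a mean of 1.19 FPKM, was near the filter and fell close to 0 in shade. Its unshaded libraries carried it past the filter, since every shaded one from 6 h on was at or below 0.467 FPKM. Its libraries were at 2.49 and 1.63 FPKM unshaded and 0.244 and 0.467 shaded at 6 h, 1.33 and 1.35 and 0.124 and 0.188 at 12 h, and 1.63 and 1.77 and 0 and 0.380 at 24 h. Both shaded libraries were below both unshaded ones at all 4 times, and the average difference was -0.99 ± 0.13 (SE; adjusted p = 0.000312). Solyc03g005880.3 rose in the average by 0.51 ± 0.13 (SE; adjusted p = 0.0115).

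Of 8 hexose and other sugar transporters tested, 1 rose at 12 h, 2 rose and 2 fell at 24 h, and 3 rose and 2 fell in the average. Called in turn were 12.5%, 50% and 62.5%, beside 23.9%, 37.3% and 39.2% of all genes. At 24 h 1 rose and none fell without the first shaded library, and the numbers in the average were as with all libraries. Solyc01g080680.3, described as sugar transporter ERD6 after a group that in Arabidopsis carries sugars out of the vacuole, was the only gene that was called in opposite directions. It was at 15.8 and 17.5 FPKM unshaded and 30.2 and 27.7 shaded at 3 h, and at 17.1 and 22.6 unshaded and 41.5 and 39.6 shaded at 6 h. At 12 h it was at 20.1 and 26.0 FPKM unshaded and 59.3 and 69.0 shaded, and at 24 h at 17.8 and 17.4 unshaded and 9.66 and 13.1 shaded. Shaded libraries were above unshaded ones without overlap at the first 3 times and below them at 24 h, while the unshaded level stayed within 15.8 to 26.0 FPKM. The difference was 1.01 ± 0.17 (SE; adjusted p = 0.0202) at 6 h, 1.44 ± 0.17 (SE; adjusted p = 0.000631) at 12 h and -0.60 ± 0.17 (SE; adjusted p = 0.0193) at 24 h. Without the first shaded library the 24 h difference was -0.40 (adjusted p = 0.172), and the 12 h call stood without any 1 library. The 6 h call was lost in 3 of the 16 fits without a library, with adjusted p up to 0.204, and also with a replicate block within times and in a fit to the 6 h libraries alone.

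Carriers described as sugar transporter proteins with a number, the group that takes up hexoses with protons in Arabidopsis, differed among themselves. Solyc07g006970.4, number 3, was at 4.21 and 4.62 FPKM unshaded and 9.10 and 9.07 shaded at 24 h, a difference of 0.90 ± 0.13 (SE; adjusted p = 0.00112) that stood without any 1 library. Solyc05g018230.4, number 12, overlapped the unshaded libraries at 3 h and 6 h and was above them at 12 h and 24 h, at 30.9 and 32.9 FPKM unshaded and 43.0 and 42.1 shaded, a difference of 0.41 ± 0.10 (SE; adjusted p = 0.0101). Solyc09g075820.3, number 2, fell at 24 h from 8.64 and 7.15 FPKM to 2.56 and 2.60, a difference of -1.31 ± 0.37 (SE; adjusted p = 0.0182). The adjusted p without the first shaded library was 0.0615 for number 12 and 0.0857 for number 2, so of these 3 carriers number 3 kept its 24 h call. In the average, number 11, Solyc06g054270.3, rose by 0.50 ± 0.16 (SE; adjusted p = 0.0277), a call that 8 of the 16 fits lost, and number 16, Solyc03g093410.3, had a difference of -0.29 ± 0.08 (SE; adjusted p = 0.0148). The transporter with the highest level, Solyc02g079220.4, had a mean of 103 FPKM and was called in no comparison.

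**Figure D5:**
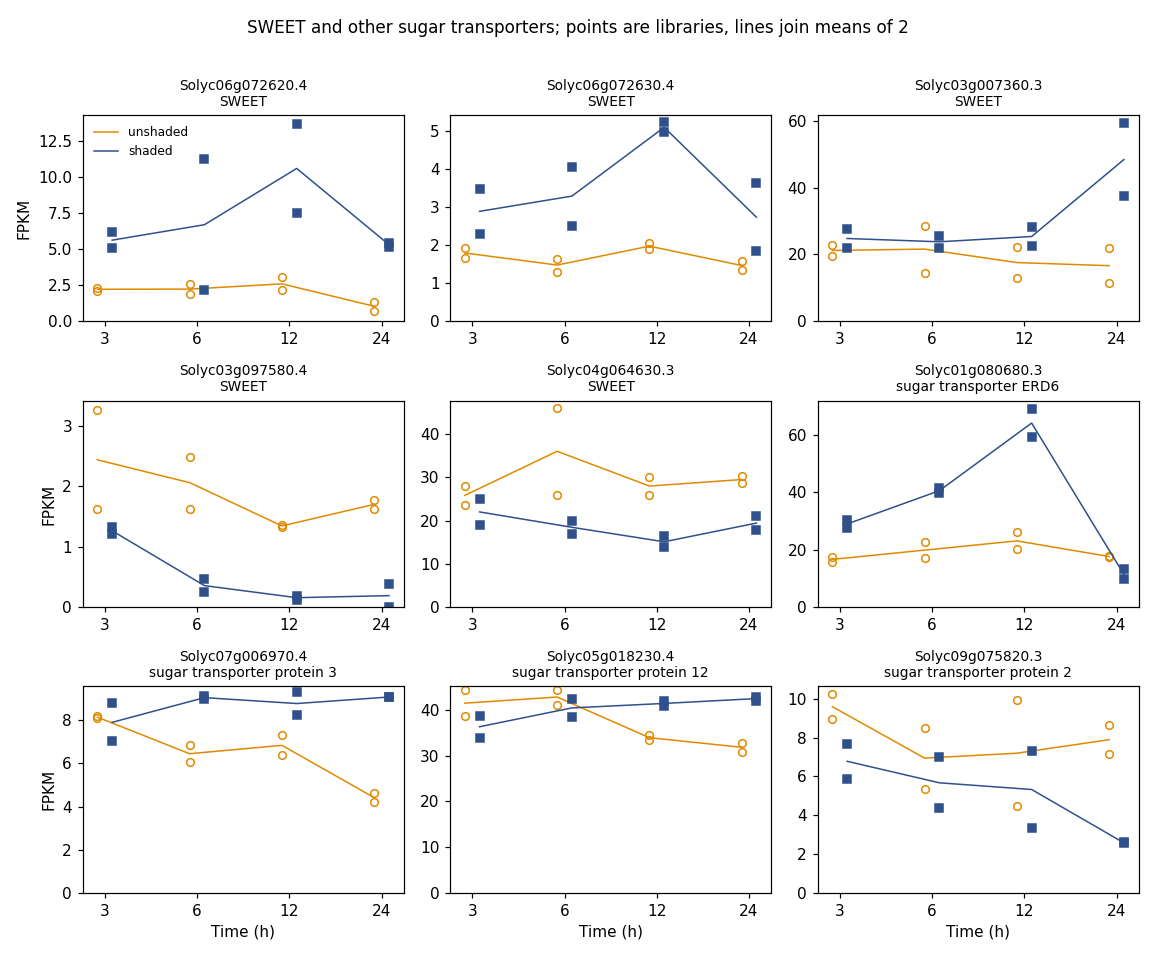
FPKM of 5 SWEET genes and 4 other sugar transporters in each library (vertical axes start at 0) at 3, 6, 12 and 24 h (horizontal axes), with open circles for unshaded and filled squares for shaded roots and lines through the means of 2. The ERD6-type gene Solyc01g080680.3 is higher in shade up to 12 h, where it reaches 59.3 and 69.0 FPKM, and lower at 24 h, where it is at 9.66 and 13.1 FPKM.

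Nucleotide-sugar transporters entered the set through the words sugar transporter. They carry activated sugars from the cytosol into the Golgi or endoplasmic reticulum for building polysaccharides and glycoproteins, and their class was set apart after the descriptions had been read. Every called member was lower in shade: 3 of 17 at 12 h, 11 at 24 h and 10 in the average. These were 17.6%, 64.7% and 58.8% of the class, beside 13.3%, 21.4% and 20.9% of all genes called lower. The 12 h share was thus near the background. Solyc07g006910.4 was at 13.4 and 11.5 FPKM unshaded and 8.65 and 6.64 shaded at 12 h, and at 16.1 and 14.5 unshaded and 6.05 and 8.42 shaded at 24 h. Its shaded libraries were below the unshaded ones at all 4 times, with differences of -0.65 ± 0.16 (SE; adjusted p = 0.0140) at 12 h and -0.998 ± 0.16 (SE; adjusted p = 0.00151) at 24 h. The member with the highest level, Solyc08g060940.1, was at 171 and 179 FPKM unshaded and 113 and 134 shaded at 24 h, a difference of -0.50 ± 0.12 (SE; adjusted p = 0.00986). Solyc10g079280.2 was at 12.3 and 12.3 FPKM unshaded and 5.84 and 6.23 shaded, a difference of -0.92 ± 0.17 (SE; adjusted p = 0.00263). In both, the groups were apart at 24 h.

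Most falls of this class were small. In the average, the difference was -0.58 ± 0.10 (SE; adjusted p = 0.00157) for Solyc08g079790.1, -0.48 ± 0.10 (SE; adjusted p = 0.00442) for Solyc11g069540.3 and -0.24 ± 0.05 (SE; adjusted p = 0.00525) for Solyc07g055700.2. The median difference of the 17 genes was -0.32 at 12 h and -0.44 at 24 h, against -0.02 and -0.03 over all genes. Without the first shaded library at 24 h, fewer members were called at 24 h, Solyc07g006910.4 and Solyc10g079280.2 among them, and every such call was lower. The share of the class called was then near that of all genes. The median was -0.34 at 24 h, against -0.01 over all genes, and -0.23 in the average, where it was -0.24 with all libraries. The single tested gene outside these classes, Solyc05g007680.1, described as an arabinanase, levansucrase or invertase, was not called.

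The remaining 54 genes had a mean under 1 FPKM. Of these, 12 were at 0 in all 16 libraries and 12 reached 1 FPKM in at least 1 library. They included 16 of 30 SWEET genes and 13 of 21 hexose and other sugar transporters, but 1 of 12 trehalose-phosphate synthases and 1 of 7 phosphatases. When every gene with a value above 0 was tested, 42 of the 54 entered the fit, and 2 were called at 12 h, 3 at 24 h and 4 in the average. The share of all genes called in that fit is not given here, so these counts have no background. Some calls lay close to 0: Solyc03g097620.1, called at 24 h, reached at most 0.197 FPKM.

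The change of the shade effect with time was tested directly. Comparing the mean effect at 12 and 24 h with that at 3 and 6 h, 8 genes had a higher and 8 a lower late effect, 16 of 88, beside 20.0% of all genes, 6.90% higher and 13.1% lower. After scaling the libraries to equal FPKM sums these numbers were 4 and 7. Of the 16, 7 kept their call without the first shaded library at 24 h. The largest changes that stood without any 1 library were -2.15 ± 0.46 (SE; adjusted p = 0.0130) for the inhibitor superfamily gene Solyc03g083710.1, -1.05 ± 0.24 (SE; adjusted p = 0.0164) for Solyc07g042390.3, 0.92 ± 0.21 (SE; adjusted p = 0.0164) for the invertase inhibitor Solyc12g099200.2, 0.91 ± 0.16 (SE; adjusted p = 0.00802) for the sucrose synthase Solyc07g042550.3 and 0.48 ± 0.10 (SE; adjusted p = 0.0120) for sugar transporter protein 12. An F-test of the interaction of light and time over the 4 times called 4 genes, beside 6.79% of all genes: the ERD6-type transporter Solyc01g080680.3 (adjusted p = 0.0182), the sucrose synthase Solyc07g042550.3 (0.0257), sugar transporter protein 3 Solyc07g006970.4 (0.0431) and Solyc03g083710.1 (0.0490). These 4 calls were lost in 3, 7, 10 and 14 of the 16 fits without a library, in that order. With a replicate block within times no gene of the 88 was called, and the call of Solyc03g083710.1 was lost in all 6 other settings tried.

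Genes of neighbouring steps in sugar metabolism were followed through 12 lists set by description, 100 genes of which 71 were tested. None was called at 3 h, and 3 rose at 6 h, 11 rose and 11 fell at 12 h, and 10 rose and 14 fell at 24 h. The share called was 31.0% at 12 h and 33.8% at 24 h, beside 23.9% and 37.3% of all genes, so at 24 h it was near the background. Without the first shaded library fewer were called at 24 h, in a share again near that of all genes. UDP-glucose pyrophosphorylases, which interconvert UDP-glucose and glucose 1-phosphate, fell in 3 of 3 genes at 24 h, with a median difference of -1.11. ADP-glucose pyrophosphorylases, which make the substrate of starch synthesis, fell in 2 of 8, starch synthases in 2 of 8 and phosphoglucomutases in 2 of 2 at 24 h, and none of these rose. Among all genes 15.9% were called higher and 21.4% lower at 24 h. Without that library 2 genes, 2 genes, 1 gene and 0 genes of these 4 lists were called at 24 h, all lower. The words SNF1 or SnRK1, the kinase that trehalose 6-phosphate inhibits, took 10 tested genes, of which 2 are by description components of the SWI/SNF complex, which remodels chromatin, and were not called. Of the other 8, described as SNF1-related kinases, their subunits or an anchoring protein, 5 rose in the average and none fell, beside 39.2% of all genes called and 18.2% higher. The list's highest member, Solyc03g111310, a regulatory subunit by description, rose by 1.47 at 12 h and 1.39 at 24 h. In the list taken by the word amylase, enzymes that break down starch, 4 of 15 genes rose and 2 fell at 24 h, fewer without that library. The word also caught a gene described as a maltase-glucoamylase intestinal protein. The beta-amylase Solyc08g077530, chosen after its values were seen, rose by 1.27 at 6 h, 1.79 at 12 h and 1.41 at 24 h. Hexokinases, which phosphorylate hexoses, rose in 1 and fell in 3 of 6 genes in the average, and the list taken by the word fructokinase, which also caught phosphofructokinases, rose in 2 and fell in 3 of 11. In the lists of sucrose-phosphate synthases, sucrose phosphatases, and galactinol, raffinose and stachyose synthases, 1 gene each was called in the average, lower in the first and higher in the other two. Neither of 2 polyol transporters passed the filter.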

How the data were processed

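The authors deposited 1 table of FPKM values for tomato, with 34075 genes and their descriptions, and all 16 of its sample columns were matched to the labels by title. Cufflinks 2.1.1 and the Arabidopsis build TAIR10 are named per the submitters' processing notes without a role; the tomato build, aligner and filters are not given in the sources used here. FPKM keeps no read counts, so absolute depth is unknown; relative depth came from the steps between low values. A pseudocount of 1 was added before taking log2, no scaling was applied, and genes needed a mean of at least 1 FPKM. limma 3.58.1 in R 4.3.3 was fitted to all 16 libraries with 1 mean per group and an intensity trend, with Benjamini-Hochberg adjustment over 20413 genes and calls at 0.05. An exact permutation test of 1 gene with groups of 2 cannot go below p = 0.333, so calls rest on the shared spread. Comparisons were shaded against unshaded at each time, their average, late against early times, and the interaction of light and time. The fit was also run on simulated data, with independent values and the same spread in every group. Uneven replicate pairs were not simulated, and the outcome is not given here.

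The genes and lists were chosen with earlier results of these data known. The 48 genes named are, per class, all members above the filter in classes of at most 6, otherwise the 6 called members with the lowest adjusted p in the average, plus the highest member of each class and the largest called rise and fall at each time; others are marked. Nucleotide-sugar transporters were split from other transporters after the descriptions were read. Alternatives were a pseudocount of 0.1, no filter, median-of-ratios scaling, equal FPKM sums, fits to single times, replicate blocks and leaving out each library. Replicate numbers were not taken as pairs: deviations of same-numbered samples within a time correlated at -0.004 to 0.094. Tomato sequences and promoters were not used here. Plots were drawn with matplotlib 3.10.9.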

Additional observations from a re-analysis of the deposited data

Results flagged for a closer look

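The genes below were picked out because their shade effect differed between times in a direct test. The F-test of light by time gave adjusted p of 0.0182 for the ERD6-type transporter Solyc01g080680.3, 0.0257 for the sucrose synthase Solyc07g042550.3, 0.0431 for sugar transporter protein 3 Solyc07g006970.4 and 0.0490 for the invertase inhibitor superfamily gene Solyc03g083710.1. These calls were lost in 3, 7, 10 and 14 of the 16 fits without a library, and that of Solyc03g083710.1 also in all 6 other settings. Depending on which library was left out, 0 to 14 members were called in this test.

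The mean shade effect at 12 and 24 h minus that at 3 and 6 h was positive and called in 8 members, 7 of them named by the rule. It was 0.92 for the invertase inhibitor Solyc12g099200.2, 0.91 for the sucrose synthase Solyc07g042550.3 and 0.72 for trehalose-6-phosphate synthase 1 Solyc07g006500.3. The synthase Solyc04g025940.3 had 0.54, sugar transporter protein 16 Solyc03g093410.3 had 0.50, protein 12 Solyc05g018230.4 had 0.48 and protein 3 Solyc07g006970.4 had 0.41. For Solyc03g093410.3 the positive value came with levels below the unshaded ones at 3 and 6 h and overlapping levels at 12 and 24 h.

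The same difference was negative and called in 8 members, 5 of them named. It was -2.15 for Solyc03g083710.1, -1.06 for the sucrose synthase Solyc07g042520.4 and -1.05 for the inhibitor superfamily gene Solyc07g042390.3. It was -0.57 and -0.39 for the invertases Solyc06g065210.4 and Solyc11g020610.3. Of the 16 calls, 5 stood without any 1 of the 16 libraries, 3 higher and 2 lower, and 6, 6, 7 and 12 were left in the fits that lacked 1 library of 24 h. Groups of 2 samples were too small for a search for single outlying samples.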

How the results depend on the processing

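No called value of a named gene changed direction under any alternative, and 592 of 683 calls of named genes stood when a setting was changed (1338 of 1680 when a library was left out). The named genes were partly picked by low adjusted p in the same data, and only their called values were followed, which favours such agreement. Counts of called members moved by more than 1.5 times as follows. Fitting only the 4 libraries of a time called 0 members (6 h), 7 members (12 h) and 18 members (24 h), in place of 2, 23 and 39. A replicate block within times gave 1 member at 6 h, 9 for late against early and 0 for the interaction, in place of 2, 16 and 4. A block across times moved no count by that much and gave 23 at 12 h and 39 at 24 h. Without the filter, 7 were called for late against early and 2 for the interaction, and equal sums gave 2 for the interaction; the cause was not tested. Leaving out each library in turn gave 0 members at 3 h throughout, 0 to 3 at 6 h, 7 to 23 at 12 h, and 10 to 42 at 24 h. It gave 36 to 50 when the times were averaged, 5 to 21 for late against early and 0 to 14 for the interaction; such fits have fewer samples. The low counts came without either 12 h shaded library (9 and 7 at 12 h), without either unshaded one (11 and 15), and at 24 h without the first shaded (10) or either unshaded library (16 and 19). Absolute depth is unknown, which limits what can be said of genes near the filter.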
